A study of Mus musculus with 6 samples.

Results

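The genes described here carry pyruvate into the mitochondrion and turn the tricarboxylic acid (TCA) cycle. The list names 34 genes: the mitochondrial pyruvate carrier, the pyruvate dehydrogenase complex with its kinases and phosphatases, pyruvate carboxylase, malic enzymes and the enzymes of the cycle. All 34 were among the 11866 genes of the deposited table, and all 34 passed the filter on low values (a mean of at least 1 FPKM, fragments relative to transcript length and sequencing depth) that left 10770 genes for testing. They were measured by RNA-seq of poly(A) RNA in HCC3-4 cells, a cultured mouse line from liver tumours of MYC transgenic animals. They were stably transfected with shSf3b3, a hairpin construct that lowers Sf3b3 (KD, 3 libraries), or with the negative control pLKO.1-TRC (PLKO, 3 libraries). Both groups share the MYC transgenic origin. Sf3b3 encodes a subunit of SF3b, the splicing complex that sits at the branch point of introns. The labels name no second hairpin and no rescue, so an effect of losing Sf3b3 and another effect of the hairpin cannot be told apart. They do not say whether the 3 libraries of a group are separate cultures; the p-values cover library-to-library spread only, and that spread may be technical.

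In a respiring cell, pyruvate from glycolysis enters the matrix through a carrier made of MPC1 and MPC2. Pyruvate dehydrogenase then converts it to acetyl-CoA, and kinases switch this complex off by phosphorylation while phosphatases switch it on. The cycle oxidises the acetyl group to CO2 and passes electrons to the respiratory chain. Pyruvate carboxylase refills the cycle, a reaction that feeds gluconeogenesis in liver, and malic enzymes draw malate back to pyruvate.

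The libraries held between 15140441 and 17566101 reads on listed genes, a 1.16-fold range, and the members had from 31 reads (Mpc1 in KD 2) to 7170 reads (Mdh2 in PLKO 2) per library. Sf3b3, the target of the hairpin, had 22.6, 28.7 and 29.2 FPKM in PLKO 1, 2 and 3 and 10.3, 9.56 and 13.9 FPKM in KD 1, 2 and 3, a fall with a log2 fold change of -1.26 (limma adjusted p = 0.0372). Leaving out PLKO 1, PLKO 2, KD 1 or KD 2 ended that call (limma adjusted p from 0.125 to 0.189), with log2 fold changes of -1.38 to -1.15. Myc had 32.0, 87.5 and 19.1 FPKM in PLKO and 9.88, 12.2 and 30.6 FPKM in KD. Its groups overlapped, with a log2 fold change of -1.29 (limma adjusted p = 0.183) that was -0.68 without PLKO 2. Of 10 hepatocyte markers 1 was listed, Afp, at 0.302 to 0.467 FPKM in PLKO and 0.814 to 1.98 FPKM in KD, so defining hepatocyte markers were largely absent from the table. Epithelial keratin genes were present (3 of 5 epithelial markers, summing to 54.4 to 99.2 FPKM). Of 7 fibroblast or stellate markers 5 were listed, with sums of 103 to 157 FPKM in PLKO and 52.9 to 75.7 FPKM in KD. Pdgfrb and Col3a1 made up most of that sum, and Pdgfra, in contrast, overlapped between the groups (5.98 to 12.2 FPKM in PLKO and 9.21 to 13.4 FPKM in KD). No endothelial marker of 4 was listed, and of 7 leukocyte markers Cd79a alone was, at 0.0828 to 0.95 FPKM in PLKO and 2.51 to 4.88 FPKM in KD. The part of Myc and of these markers in the results below was not tested. In bulk RNA, fewer cells of a type and less RNA per cell cannot be told apart.

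None of the 34 members was called at a limma adjusted p under 0.05, where 2.92% of all tested genes were. The lowest adjusted p was 0.0554 (Sucla2). At an unadjusted p under 0.05 the test marked 9 members, 26.5% of them against 27.6% of all tested genes: Mpc1, Dlat, Me2, Idh2, Dlst, Sucla2 and Fh1 were lower in KD, and Pdp2 and Sdhd were higher. In 11 members (32.4%) the KD and PLKO libraries did not overlap, 8 lower and 3 higher, against 32.1% of all tested genes. The members' log2 fold changes ran from -1.03 to 0.68 with a median of -0.13, beside -0.04 over all tested genes, and 21 of 34 (61.8%) lay below 0, beside 52.3% of all tested genes. The shares at an unadjusted p under 0.05 and without overlap are close to their backgrounds. The 95% interval stayed within a 2-fold change in either direction for 22 of the 34 members, beside 45.1% of all tested genes. It reached past 2-fold for the other 12.

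Adding the replicate number as a block to the model called 6 members, or 17.6%, where it called 19.3% of all tested genes. Sucla2, Dlst, Dlat, Me2 and Fh1 were lower and Sdhd was higher in that fit. Without both libraries numbered 3, limma called 8 members (23.5%, beside 27.9% of all tested genes): the same 6 with Idh2 and Mpc1, both lower. Without KD 3 alone it called 6 (17.6%, beside 16.2%), which were Sucla2, Dlat, Me2, Idh2 and Mpc1, lower, and Sdhd, higher. Leaving out PLKO 3 alone, it called no member, beside 801 of the 10770 tested genes. With any of the remaining libraries left out singly, limma called no gene of the whole table, and so no member.

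**Figure D1:**
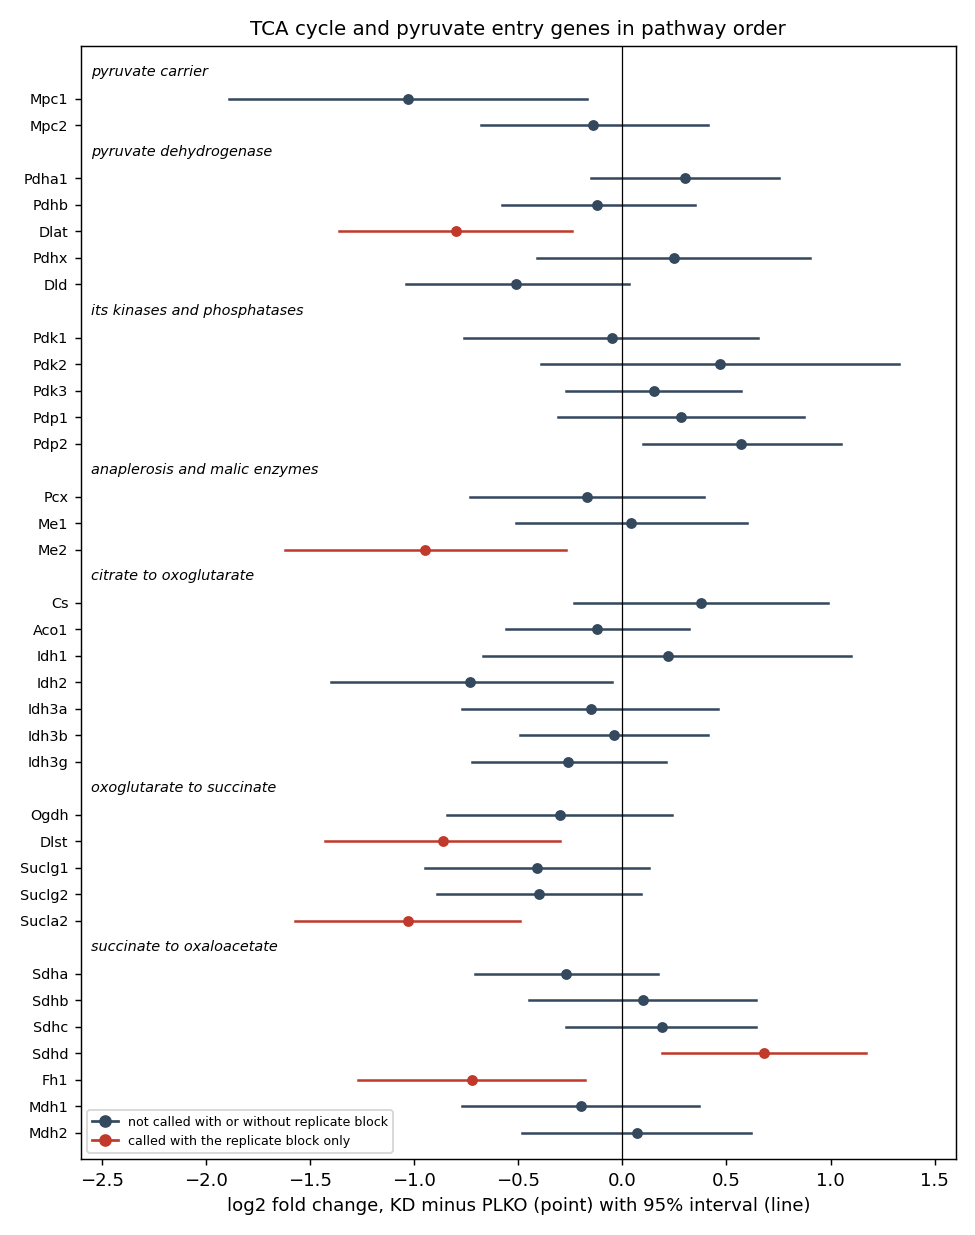
Log2 fold change of each of the 34 members, KD minus PLKO, in pathway order from the pyruvate carrier down to malate dehydrogenase; points are estimates, lines 95% intervals from limma (3 libraries a group). Red marks the 6 members called with the replicate block, a pairing chosen from these data. Of them 5 lie to the left of 0 and Sdhd to the right. The main fit, without the block and with all 6 libraries, called none.

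The carrier that admits pyruvate was represented by both of its subunits. Mpc1 had 2.47, 3.30 and 2.24 FPKM in PLKO and 1.05, 0.998 and 2.06 FPKM in KD. KD 1 and KD 2 lay far below the control libraries, and KD 3 lay just under the lowest of them. The log2 fold change was -1.03 (SE 0.38, limma adjusted p = 0.125), on 72 to 113 reads in PLKO and 31 to 73 in KD. Without KD 3, the KD library nearest the controls, it was -1.36 (limma adjusted p = 0.0353), and without KD 2 it was -0.84 (limma adjusted p = 0.373). Mpc1 lies on chromosome 17 from 8282904 to 8297661 and shares exon sequence with 4930506C21Rik on the opposite strand. Mpc2, its obligate partner, had 3.75, 3.14 and 4.05 FPKM in PLKO and 3.31, 3.28 and 3.31 FPKM in KD, with KD inside the control range (log2 fold change -0.14, 95% interval -0.68 to 0.41). The low FPKM of Mpc2 is computed over 7344 annotated exonic bases and stands for 374 to 497 reads.

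Pyruvate dehydrogenase is built on a core of dihydrolipoamide acetyltransferase, the product of Dlat, which carries the lipoyl arm that receives the acetyl group. Dlat had 27.7, 32.0 and 23.5 FPKM in PLKO and 12.5, 14.9 and 21.3 FPKM in KD. All 3 KD libraries were below all 3 controls, with KD 3 the closest. The log2 fold change was -0.80 (SE 0.25, limma adjusted p = 0.0896, and 0.0395 with the replicate block). Dld, the dihydrolipoamide dehydrogenase used by several such complexes, averaged 58.8 ± 9.12 FPKM (SD, n = 3) in the control group and 41.7 ± 9.33 FPKM in KD, with a log2 fold change of -0.51 (interval -1.04 to 0.03) that was -0.31 without KD 3. For Dld the order was reversed: KD 3, at 31.3 FPKM, was the lowest library.

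The subunits that decarboxylate pyruvate differed less, with log2 fold changes on either side of 0. Pdha1, the catalytic subunit that the kinases phosphorylate, had 67.4, 83.2 and 92.6 FPKM in PLKO and 98.8, 106 and 91.9 FPKM in KD. PLKO 3 overlapped the KD range, and the log2 fold change was 0.30 (interval -0.15 to 0.75, limma adjusted p = 0.355). Pdhb, its partner, had a log2 fold change of -0.12 (interval -0.58 to 0.35). Pdhx is not a decarboxylating subunit and tethers dihydrolipoamide dehydrogenase to the core. The gene had 15.4 and 14.0 FPKM in KD 1 and KD 2 but 7.89 FPKM in KD 3, below all control libraries (8.28 to 11.5 FPKM). Its log2 fold change of 0.25 had an interval from -0.41 to 0.90. Summed over the 5 subunits, FPKM came to 206 to 228 in PLKO and to 216, 217 and 181 in KD 1, 2 and 3. Pdha1 and Map3k15 share exon sequence on opposite strands.

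Of the regulators of pyruvate dehydrogenase, 4 of 5 had log2 fold changes above 0. Pdp2, a phosphatase that reactivates the complex, had 6.65, 5.58 and 6.46 FPKM in PLKO and 8.5, 10.6 and 8.76 FPKM in KD. Every KD library was above every control, by a log2 fold change of 0.57 (SE 0.21, limma adjusted p = 0.124, and 0.0913 with the replicate block). Pdp1, the other phosphatase gene, had a log2 fold change of 0.28 with overlapping groups. Pdk1, the kinase gene best known as a hypoxia target, had 13.5, 8.55 and 13.8 FPKM in PLKO and 8.32, 10.3 and 16.8 FPKM in KD, so the groups overlapped, with KD 3 above every control (log2 fold change -0.05, interval -0.76 to 0.65). Pdk2 was the least abundant kinase per length, at 3.16 to 6.61 FPKM in PLKO and 3.98 to 9.62 FPKM in KD, and KD 3 was its highest library. The log2 fold change of Pdk2 was 0.47 (interval -0.39 to 1.33). Of the kinases Pdk3 varied least, with 13.7 ± 0.580 FPKM in the control group and 15.1 ± 0.726 FPKM in KD. Its groups did not overlap, yet the difference was a log2 fold change of 0.15 (interval -0.27 to 0.57, limma adjusted p = 0.636).

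Among the genes that add or withdraw carbon, Me2 stood apart from Me1 and Pcx. Me2, the mitochondrial NAD-linked malic enzyme, had 23.0, 28.2 and 20.1 FPKM in PLKO and 9.06, 10.5 and 19.0 FPKM in KD. KD 1 and KD 2 were at 38.1% and 44.3% of the PLKO mean, and KD 3 at 79.9%, just under PLKO 3. The log2 fold change was -0.95 (SE 0.30, limma adjusted p = 0.0904, and 0.0307 with the replicate block). Without both libraries numbered 3 it was -1.38 (limma adjusted p = 0.00517), and without KD 1 it was -0.74 (limma adjusted p = 0.286). Me1, the cytosolic NADP-linked enzyme that supplies reducing power for lipid synthesis, had 28.6, 25.1 and 30.2 FPKM in PLKO and 21.7, 28.0 and 39.2 FPKM in KD, spread to both sides of the controls (log2 fold change 0.04, interval -0.51 to 0.60). Pcx, pyruvate carboxylase, had 16, 12.7 and 10.8 FPKM in PLKO and 8.91, 13 and 13.3 FPKM in KD, overlapping (log2 fold change -0.17, interval -0.73 to 0.39).

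In the 7 genes from citrate to oxoglutarate the groups overlapped throughout. Cs, citrate synthase, had 41.5, 64.4 and 35.9 FPKM in PLKO and 66.3, 67.7 and 46.6 FPKM in KD. PLKO 2 lay with KD 1 and KD 2, and KD 3 lay with PLKO 1 and PLKO 3, which gave a log2 fold change of 0.38 with an interval from -0.23 to 0.99. Idh2, the mitochondrial NADP-linked isocitrate dehydrogenase, had 71.1, 55.9 and 76.8 FPKM in PLKO and 27.3, 40.4 and 61.1 FPKM in KD. KD 3 exceeded PLKO 2, so the groups overlapped. The log2 fold change was -0.73 (SE 0.30, limma adjusted p = 0.156), with -1.02 without KD 3 (limma adjusted p = 0.0362) and -0.44 without KD 1 (limma adjusted p = 0.445). Idh1, the cytosolic form, had 65.6, 25.1 and 65.3 FPKM in PLKO and 39.6, 69.6 and 61.2 FPKM in KD. PLKO 2 was the lowest of all 6, and without it the log2 fold change of Idh1 was -0.24 in place of 0.22. Idh3a, Idh3b and Idh3g, the subunits of the NAD-linked enzyme that belongs to the cycle proper, had log2 fold changes of -0.15, -0.04 and -0.26. Aco1, the cytosolic aconitase that also acts as the iron sensor IRP1, had a log2 fold change of -0.12 (interval -0.56 to 0.32). Idh3b shares exon sequence with Nop56 on the opposite strand.

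From oxoglutarate to succinate all 5 genes had log2 fold changes below 0, from -1.03 to -0.30. Sucla2 encodes the beta subunit of the ATP-forming succinyl-CoA ligase. It had 37.4, 45.5 and 37.8 FPKM in PLKO and 14.8, 20.4 and 25.2 FPKM in KD. The highest KD library was well below the lowest control. In reads, these were 2697, 3029 and 2384 in PLKO and 909, 1285 and 1761 in KD. That gave a log2 fold change of -1.03 (SE 0.24, interval -1.57 to -0.49), with a limma adjusted p of 0.0554 and of 0.0115 with the replicate block. Sucla2 lies on chromosome 14 from 73525319 to 73596142.

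Dlst encodes the lipoyl-bearing succinyltransferase core of the oxoglutarate dehydrogenase complex, the counterpart of Dlat. It had 20.7, 36.6 and 22.5 FPKM in PLKO and 13.8, 13.7 and 15.0 FPKM in KD. The KD libraries lay close together and below all controls, while PLKO 2 stood above the other controls. This was a log2 fold change of -0.86 (SE 0.25, limma adjusted p = 0.0761, and 0.0259 with the replicate block). KD 3 was as low as the other KD libraries in Dlst, at 56.3% of the PLKO mean against 51.8% and 51.5%. Without PLKO 2 the log2 fold change was -0.61, the smallest when any single library was left out. The gene lies on chromosome 12 from 85110833 to 85134845.

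The other genes of this stretch differed less. Ogdh, the decarboxylating subunit of the complex, had 28.1, 43.5 and 26.7 FPKM in PLKO and 23.8, 28.9 and 25.4 FPKM in KD (log2 fold change -0.30, interval -0.84 to 0.24). Suclg1, the alpha subunit common to both succinyl-CoA ligases, had 17.5, 28.8 and 18.3 FPKM in PLKO and 14.6, 16.3 and 16.4 FPKM in KD. Its groups did not overlap, with a log2 fold change of -0.41 (limma adjusted p = 0.289) that was -0.18 without PLKO 2. Suclg2, the beta subunit of the GTP-forming ligase, had a log2 fold change of -0.40 (interval -0.89 to 0.09), and KD 3 overlapped the controls.

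**Figure D2:**
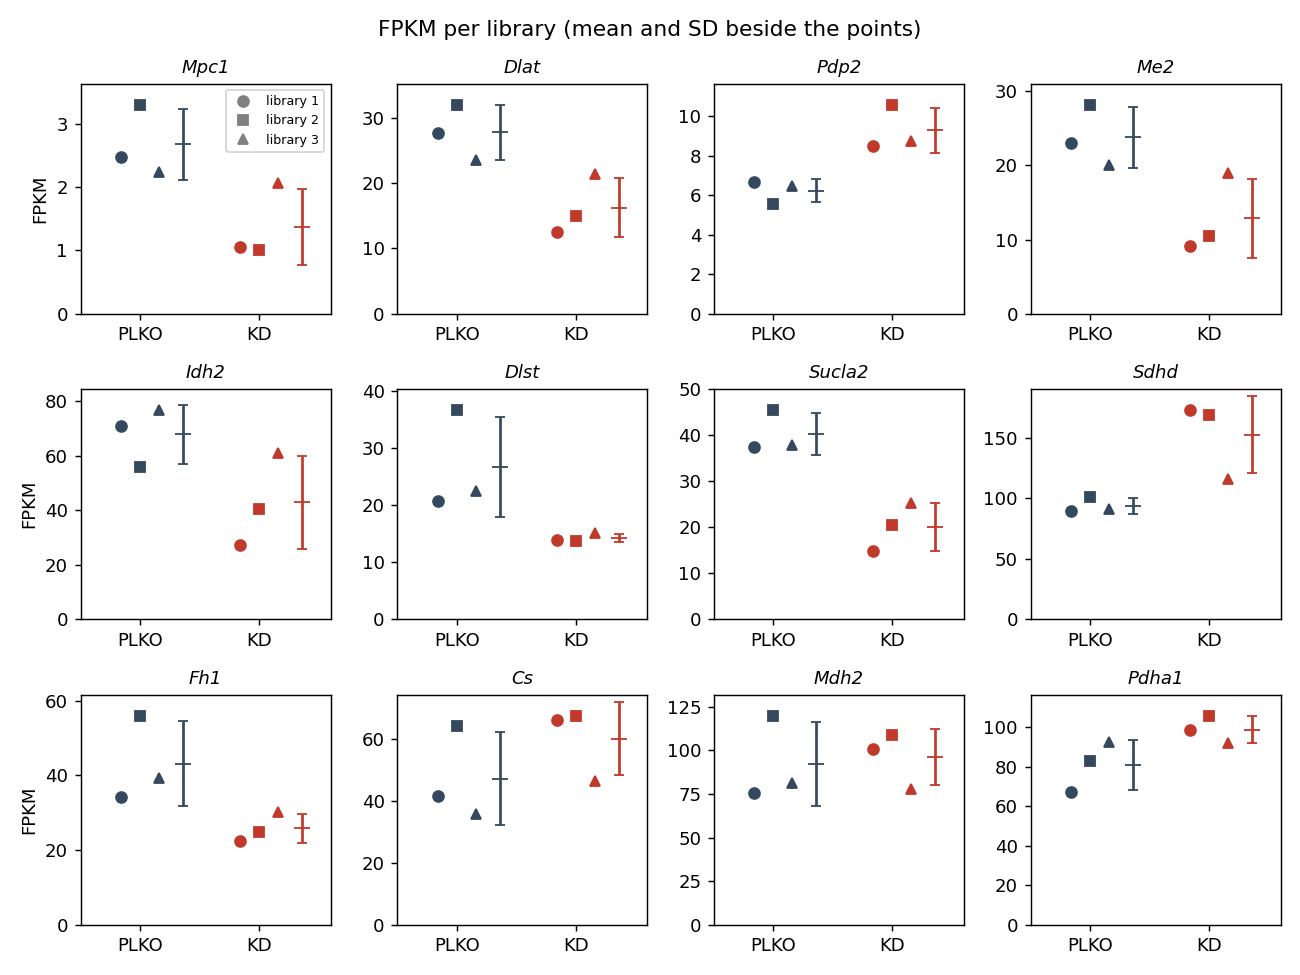
FPKM of 12 members in each library on linear axes from 0, PLKO in blue and KD in red, with circle, square and triangle for libraries 1, 2 and 3, and the mean with its SD (n = 3) beside them: the 9 members with an unadjusted p under 0.05, then Cs, Mdh2 and Pdha1. In Sucla2 all KD points (14.8 to 25.2) lie below all PLKO points (37.4 to 45.5), while in Mdh2 the groups overlap.

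The last stretch of the cycle, from succinate to oxaloacetate, held differences in both directions. Sdhd encodes a small membrane anchor of succinate dehydrogenase, which is also complex II of the respiratory chain. It had 89.1, 101 and 91.1 FPKM in PLKO and 173, 169 and 116 FPKM in KD. KD 3 was nearest the controls but above all of them. That gave a log2 fold change of 0.68 (SE 0.22, interval 0.19 to 1.17, limma adjusted p = 0.0911, and 0.0477 with the replicate block). The partner subunits of the same enzyme differed less: the flavoprotein gene Sdha had a log2 fold change of -0.27 (interval -0.71 to 0.17), the iron-sulfur gene Sdhb of 0.10 (interval -0.45 to 0.64) and the other anchor gene, Sdhc, of 0.19 (interval -0.27 to 0.64). Sdha was lower in all 3 KD libraries, at 45.9, 54.0 and 58.4 FPKM against 59.5, 60 and 70.5 FPKM.

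Sdhd starts back to back with Timm8b, a mitochondrial import chaperone gene, on chromosome 9. The bases that separate their RefSeq starts (GRCm38.p6, minus strand, chr9:50603850-50603900) are shown because they lie upstream of the member with the highest log2 fold change and of a gene measured in the same libraries. The capitals mark CCGGAAG, the core bound by ETS factors, on the opposite strand.
Sdhd and Timm8b, shared upstream bases: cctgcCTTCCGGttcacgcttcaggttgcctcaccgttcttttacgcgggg
Timm8b had 54.7, 57.3 and 65.0 FPKM in PLKO and 72.5, 82.0 and 53.5 FPKM in KD. KD 1 and KD 2 were above the controls and KD 3 was below them, for a log2 fold change of 0.21 (SE 0.22, limma adjusted p = 0.548). Timm8b shares exon sequence with Nkapd1 on the opposite strand.

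Of the members other than Me2, which was not searched, 10 have the annotated start of another protein-coding gene within 1000 bp on the opposite strand, a search made after the values were seen. In 8 of these pairs both genes were tested, and in 6 of the 8 the log2 fold changes had the same sign. The share with the same sign among other gene pairs was not computed, so this count has no background. Mdh1 and Wdpcp, among the 6, share exon sequence, so their values may not be independent. The 2 pairs with opposite signs were Sdha beside Ccdc127 (-0.27 and 0.25) and Pdhx beside Apip (0.25 and -0.49). Dlst (-0.86) lies beside Prox2 (-0.17), and Mpc2 (-0.14) beside Dcaf6 (-1.04, limma adjusted p = 0.115, and 0.0236 with the replicate block).

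Promoter windows from RefSeq matched 30 members. In the 250 bases before the start, read on both strands, CCGGAAG occurred in 3 of 30 (10.0%, beside 7.05% of all 27025 genes with a window): Idh3g, Mpc1 and Sdhd. The E-box CACGTG, which MYC and MAX can bind, occurred in Pcx, Pdk2 and Pdp2 (10.0%, beside 6.05%). The core of the NRF1 motif, GCATGCGC, occurred in Sdhb (3.33%, beside 2.32%), and TCAAGGTCA, bound by oestrogen-related receptors, in none (0.366% of all genes). None of these 4 strings lies inside another. They were chosen with the expression values known. A match is a string of letters and no evidence of binding.

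Fh1, fumarase, had 34.1, 56.0 and 39.3 FPKM in PLKO and 22.4, 24.8 and 30.1 FPKM in KD. All KD libraries were below all controls, with a log2 fold change of -0.72 (SE 0.24, limma adjusted p = 0.10, and 0.0437 with the replicate block). Mdh2, the mitochondrial malate dehydrogenase that closes the cycle, had 75.6, 120 and 81.4 FPKM in PLKO and 101, 109 and 78.0 FPKM in KD. KD lay inside the control range (log2 fold change 0.07, interval -0.48 to 0.62). Mdh1, the cytosolic form that serves the malate-aspartate shuttle, had 67.5, 58.0 and 86.6 FPKM in PLKO and 45.5, 64.6 and 76.2 FPKM in KD (log2 fold change -0.20, interval -0.77 to 0.37). It shares exon sequence with Wdpcp on the opposite strand.

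KD 3 was the KD library nearest the PLKO mean in 18 of 34 members (52.9%), beside 51.8% of all tested genes. Among the 9 members with an unadjusted p under 0.05 it was the nearest in 8, all but Pdp2, and among all 2977 tested genes with such a p in 70.6%. Sf3b3 itself stood at 38.4% and 35.6% of the PLKO mean in KD 1 and KD 2 and at 51.8% in KD 3, and Myc was at 21.4%, 26.4% and 66.2%. The PLKO mean of Myc was raised by PLKO 2 (87.5 FPKM), and KD 3 (30.6 FPKM) lay inside the control range. Whether the remaining Sf3b3 or the Myc level has a part in how near KD 3 lay to the controls was not tested. Among the controls PLKO 2, the library with the most Myc, was the lowest for Idh1 and Pdk1 and the highest for Cs, Dlst, Suclg1, Ogdh, Fh1, Idh3a and Mdh2, examples chosen after their values were seen.

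**Figure D3:**
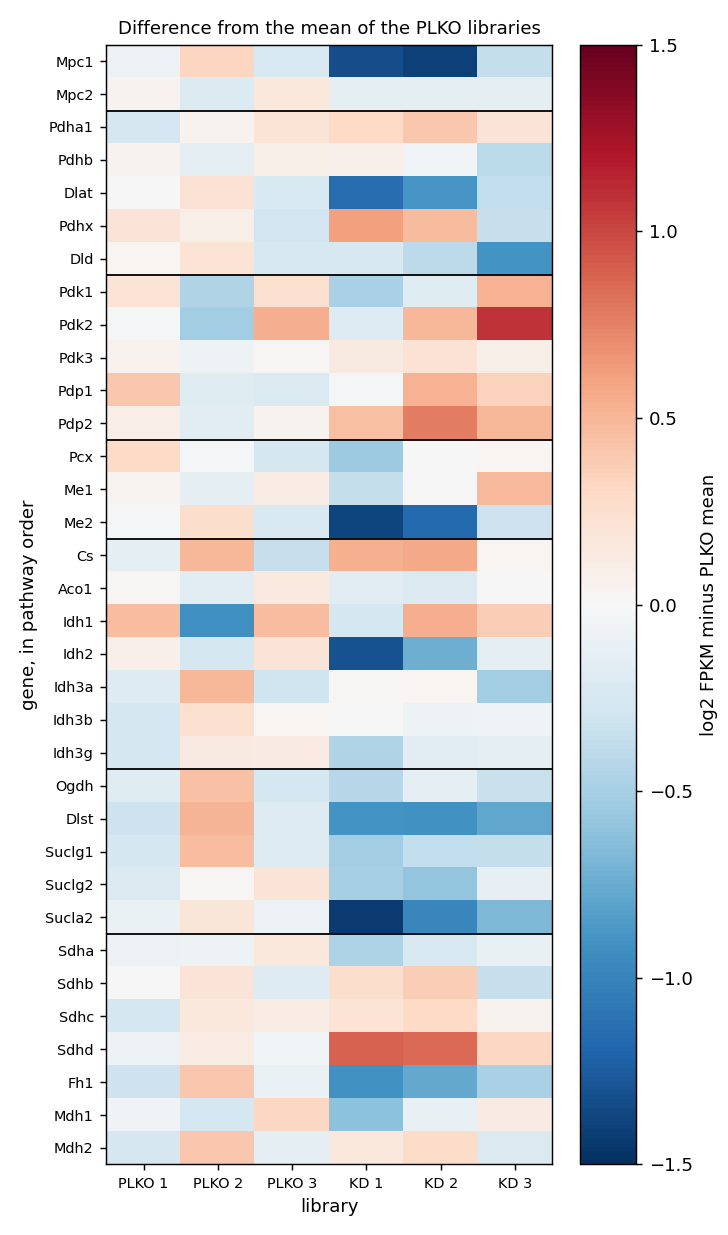
Log2 FPKM of the 34 members in each of the 6 libraries minus the mean of the 3 PLKO libraries, genes in pathway order with black lines between the groups of steps; blue is lower and red higher. Mpc1, Dlat, Me2 and Idh2 are dark blue in KD 1 and KD 2 and pale in KD 3, whereas Dlst is similar in all 3 KD libraries.

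Ratios of related genes within a library do not depend on how libraries were scaled to each other. Of 7 pairs compared, 4 did not overlap between groups. Each of the 4 had an exact two-sided permutation p of 0.1, the smallest that 3 against 3 libraries allow, and 0.175 after Benjamini-Hochberg adjustment over the 7. The share without overlap among ratios of other gene pairs was not computed, so the count of 4 has no background. Among single tested genes 32.1% did not overlap. The log2 ratio of Me2 over Me1 was -0.31, 0.17 and -0.59 in PLKO and -1.26, -1.41 and -1.05 in KD, a difference of -0.99. KD 3 lay below the lowest control in this ratio too, while in Me2 alone it was just under PLKO 3. Me1 in KD 3 (39.2 FPKM) was above every control (25.1 to 30.2 FPKM), which lowered the ratio of that library. The log2 ratio of Idh2 over Idh1 was 0.50 ± 0.57 (SD, n = 3) in PLKO and -0.44 ± 0.40 in KD, a difference of -0.94, with the low Idh1 of PLKO 2 giving the highest ratio; without PLKO 2 the difference was -0.62.

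Within the succinyl-CoA ligases, the log2 ratio of Suclg2 over Sucla2 was -0.58, -0.62 and -0.18 in PLKO and 0.49, -0.07 and 0.09 in KD, a difference of 0.63. The ATP-forming beta subunit thus made up 53.1% to 60.6% of the summed FPKM of both beta subunits in PLKO and 41.6% to 51.3% in KD. Pdk2 over Pdk1 differed by 0.52, with PLKO 3 and KD 1 almost touching at -1.06. The log2 ratio of Mpc2 over Mpc1 was 0.46 ± 0.48 in PLKO and 1.35 ± 0.58 in KD, but KD 3 lay among the controls (exact permutation p = 0.2). Mdh2 over Mdh1 and Pdk3 over Pdk1 differed by 0.27 and 0.20 (exact permutation p = 0.7 for both). With 1 library left out, the former ran from 0.02 to 0.61 and the latter from -0.02 to 0.51.

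**Figure D4:**
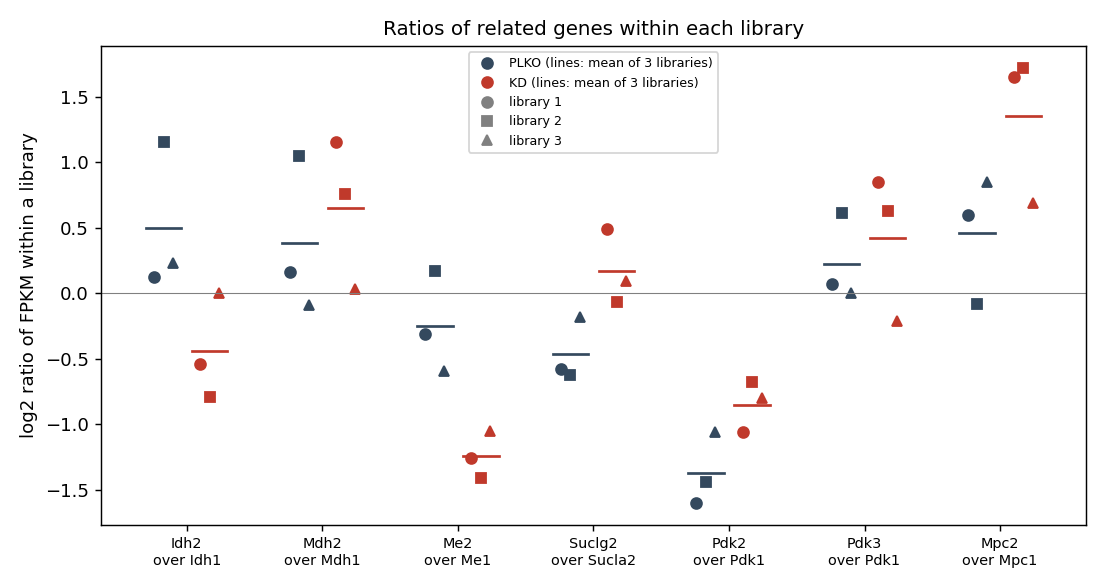
Log2 ratio of FPKM of 7 gene pairs within each library, PLKO in blue and KD in red, with circle, square and triangle for libraries 1, 2 and 3 and a line at the mean of 3. Me2 over Me1 is lower in all KD libraries (-1.41 to -1.05) than in all PLKO libraries (-0.59 to 0.17), and Mdh2 over Mdh1 overlaps.

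Around these members, 40 further genes of assembly, cofactor supply, transport and side branches were listed, of which 32 were in the table and tested. The limma test called 3 of them, all lower (beside 2.92% of all tested genes), and the fit with the replicate block called 10 lower and 1 higher (beside 19.3%). Their median log2 fold change was -0.34, beside -0.04 over all tested genes, and 25 of 32 were below 0, beside 52.3% of all tested genes. In 13 of the 32 (40.6%) the KD and PLKO libraries did not overlap, beside 32.1% of all tested genes. Sdhaf2, the assembly factor that helps attach FAD to the SDHA protein, had 15.5, 17 and 11.7 FPKM in PLKO and 5.78, 7.11 and 7.36 FPKM in KD. All KD libraries were below all controls, a fall with a log2 fold change of -1.12 (SE 0.23, limma adjusted p = 0.0435). Sdhaf2 shares exon sequence with Cpsf7 on the opposite strand, and the use of strand in counting is not given in the sources used here. Pck2, the mitochondrial carboxykinase that drains oxaloacetate, had 45.6, 28.0 and 38.7 FPKM in PLKO and 11.6, 12.8 and 18.7 FPKM in KD, a fall with a log2 fold change of -1.39 (SE 0.27, limma adjusted p = 0.0399). It shares exon sequence with Gm10876 on the opposite strand. The other was Gpt2, which links pyruvate to alanine, from 57.0 to 84.3 FPKM in PLKO to 11.5 to 17.8 FPKM in KD (log2 fold change -2.26, limma adjusted p = 0.0143). None of these 3 calls held without PLKO 1, PLKO 2, KD 1 or KD 2, when limma called no gene of the whole table. The log2 fold changes in those fits were -2.29 to -2.10 for Gpt2, -1.58 to -1.23 for Pck2 and -1.16 to -1.01 for Sdhaf2. The call of Pck2 was also lost with quantile normalization (limma adjusted p = 0.050).

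Lias makes the lipoyl group that the proteins of Dlat and Dlst carry. It had 9.03, 13.3 and 7.12 FPKM in PLKO and 5.08, 5.29 and 4.40 FPKM in KD, with no overlap (log2 fold change -0.95, limma adjusted p = 0.0730, and 0.0163 with the replicate block). It shares exon sequence with Gm43311 on the opposite strand. Of the carriers of cycle acids, Slc25a11, the oxoglutarate carrier, had a log2 fold change of -0.94 and Slc25a10, the dicarboxylate carrier, of -0.81. Slc25a1, the citrate carrier, had -0.25 with overlapping groups (limma adjusted p = 0.554). An aspartate-glutamate carrier gene, Slc25a13, had 0.86. Limma adjusted p ran from 0.0641 to 0.0746 for Slc25a10, Slc25a11 and Slc25a13. The other aspartate-glutamate carrier gene, Slc25a12, had -0.70 (limma adjusted p = 0.124), its groups not overlapping. Ldha, which turns pyruvate to lactate, was the most abundant gene of this list, with 502, 487 and 441 FPKM in PLKO and 479, 712 and 691 FPKM in KD. KD 1 lay inside the control range, and the log2 fold change was 0.38 (limma adjusted p = 0.290).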

How the data were processed

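The authors deposited 1 table of log2 FPKM values per gene and library for 6 libraries and 11866 genes, read as log2 from the values themselves. Per the submitters' processing notes, reads were checked with FastQC 0.11.7 and the genome was GRCm38. For the aligner, the counter, strand use and the gene filter: not given in the sources used here. Reads were recovered from the steps of the deposited log2 values, which hold a prior averaging 2 reads. With the annotated exonic length (GENCODE M21) 10963 genes gave whole reads within 0.01. For the other 903 the length was chosen so that reads came out whole, which is no check of the recovery. Reads on listed genes were 0.938 of the library size behind the values in PLKO 1 and 1.04 in PLKO 2. That size was therefore not the plain read total, and the deposited values hold a further scaling between libraries. FPKM are powers of 2 of the deposited values; the prior understates differences of genes with few reads.

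The test was limma 3.58.1 (R 4.3.3) with a mean-variance trend over 10770 genes (mean of 1 FPKM or more), group as the only term and Benjamini-Hochberg adjustment over all of them. Members and lists were chosen with earlier results of these data known. Values in every library are given for members with an unadjusted p under 0.05 and for members that start or branch a step. The others are given by log2 fold change, some with an interval. Same-numbered libraries deviated together (correlations 0.18, 0.29 and 0.50, all above 0.1), so the number was taken as a pairing, from the data and not a label. Libraries 1 and 2 were not cleanly paired. With their numbers swapped the correlations were higher (0.27 between PLKO 1 and KD 2, 0.30 between PLKO 2 and KD 1). Alternatives changed the scale, filter, scaling, weights, test on recovered reads (voom), block and libraries. Coordinates are 1-based on GRCm38.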

Additional observations from a re-analysis of the deposited data

How the results depend on the processing

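No member was called in the main test, on the log2(FPKM + 1) scale, without a filter, with a minimum mean of 5 FPKM (which drops Mpc1 and Mpc2), with median-centred libraries, with quantile normalization or with voom on recovered reads. The replicate block called 6 members (1 higher, 5 lower) and 2080 genes in all. Leaving out both libraries numbered 3 called 8 (1 higher, 7 lower) and 3009 genes. Array weights called 10 (3 higher, 7 lower) and 3599 genes; they were fitted gene by gene, a choice made after seeing the data because the default weights did not converge, and gave KD 2 a weight of 5.63 against 0.371 for KD 3. The main test called 314 genes. Leaving out 1 library at a time called 0 to 6 members (0 to 1 higher, 0 to 5 lower) and 0 to 1744 genes, with 0 in the whole table without PLKO 1, PLKO 2, KD 1 or KD 2 (1793 to 2315 genes at an unadjusted p under 0.05). Sf3b3 ran from -1.43 to -1.15 in these fits and lost its call in the same 4.

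Over 15 alternatives 24 members kept their sign. The other 10 were near 0 and uncalled. The log2 fold change turned to 0.07 for Idh3a and 0.03 for Idh3b with array weights, to 0.01 for Idh3b with median centring, to 0.0023 for Idh3b and 0.0024 for Pdk1 with quantile normalization, and, without both libraries numbered 3, to 0.06 for Pdhb and -0.12 for Me1. Me1 was -0.04 with array weights. The cause was not tested. With 1 library left out, values ran from -0.24 to 0.46 for Idh1, -0.30 to 0.09 for Idh3a, -0.17 to 0.08 for Idh3b, -0.04 to 0.32 for Sdhb, -0.36 to 0.01 for Mdh1, -0.06 to 0.28 for Mdh2, -0.22 to 0.02 for Pdhb, -0.34 to 0.17 for Pdk1, -0.30 to 0.02 for Pcx, -0.18 to 0.25 for Me1 and, for the ratio of Pdk3 over Pdk1, -0.02 to 0.51. With 3 libraries a group the median SE of a member was 0.24, and Mpc1, at 31 to 113 reads, was the member most limited by depth.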
